A study of Mus musculus with 4 samples.

Results

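The *Hox* genes were described in RNA-seq of quiescent primary mouse embryonic fibroblasts (MEFs), as every row of the deposited table whose symbol is *Hox*, a cluster letter from a to d and a number. The rule found 39 of 24391 gene symbols, of which 11 lie in the *HoxA*, 10 in the *HoxB*, 9 in the *HoxC* and 9 in the *HoxD* cluster. Of these, 32 had enough counts to be tested, out of 13668 genes tested in all. *Hoxa13*, *Hoxb1*, *Hoxb13*, *Hoxc11*, *Hoxc12*, *Hoxd1* and *Hoxd12* were not tested, and none of them exceeded 13 counts in a library.

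The study compared WT MEFs with MEFs deleted for *Phf2*, which encodes a putative histone demethylase of the Jumonji-C type. There were 2 WT and 2 *Phf2* KO libraries, which the labels number as replicates 1 and 2. All 4 were labelled as *Phf2* flox/flox with ERCre/+, a tamoxifen-dependent Cre recombinase expressed from Rosa26, in primary MEFs from embryos at E13.5. The sample descriptions mark the WT libraries as without tamoxifen (noTamox) and the *Phf2* KO libraries as with it (Tamox). The protocol text, with 0.5 µM 4-hydroxytamoxifen (4-OHT) for 7 days, is nonetheless worded alike for all 4. The loss of *Phf2*, the activity of Cre and the exposure to 4-OHT therefore cannot be told apart here. The labels do not name the embryo or culture behind a library, while the study calls its replicates biological. Sex-linked genes, given below, differed between the replicate numbers in both genotypes, so that libraries 1 and 2 did not come from the same embryos. Whether the WT and *Phf2* KO libraries of a number did is not stated.

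*Hox* genes encode homeodomain transcription factors that give cells of the embryo their position along the head-to-tail axis, and later along the limb. The genes of a cluster are ordered as they are used, with the low paralog numbers at the 3′ end active early and towards the head, and the high numbers at the 5′ end active late and towards the tail. Fibroblasts keep the *Hox* genes of the place they came from in culture, and Polycomb and trithorax proteins maintain the silent and the active part of each cluster.

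Each cluster also holds genes for microRNAs, and those of the miR-196 family are known to repress *Hox* mRNAs. The mature forms from RefSeq are shown with the seed, bases 2 to 8, in capitals. They fall into 2 groups that each share a seed, and the families differ in which *Hox* mRNAs they can pair with.
miR-10a-5p: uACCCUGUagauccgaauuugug
miR-10b-5p: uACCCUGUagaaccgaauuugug
miR-196a-5p: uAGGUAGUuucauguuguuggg
miR-196b-5p: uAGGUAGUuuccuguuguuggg

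The match to the miR-196 seed, ACTACCT on the mRNA strand, was present in the annotated 3′UTR of 9 of the 39 *Hox* genes (23.1%) and of 5.72% of 19915 genes with a 3′UTR. The median 3′UTR was 1117 bases long for the *Hox* genes and 893 bases over all genes. *Hoxa7* held 4 such matches and *Hoxc8* 3, while *Hoxa4*, *Hoxa5*, *Hoxa9*, *Hoxb1*, *Hoxb6* and *Hoxb7* held 1 each. *Hoxb8*, whose mRNA is a known target that miR-196a cleaves, holds no exact seed match. Its site, 418 bases into the 3′UTR, nonetheless pairs with all of miR-196a-5p, with 21 Watson-Crick pairs in capitals and 1 G:U pair in lower case among 22 bases.
*Hoxb8* site: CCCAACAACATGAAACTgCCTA
The seed match of miR-10, ACAGGGT, was present in 2 of the 39 (5.13%), *Hoxd1* among them, against 11.2% of all genes with a 3′UTR. These matches describe the sequence and do not show that a site is used. The libraries are of long RNA, so that mature microRNAs were not measured. The row of *Mir196a-1*, between *Hoxb9* and *Hoxb13*, held 45 and 91 counts in WT replicates 1 and 2 against 58 and 94 in *Phf2* KO replicates 1 and 2. The rows of *Mir10a*, *Mir10b*, *Mir196a-2* and *Mir196b* held at most 2 counts in a library.

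*Phf2*, the targeted gene, had 3244 and 3680 counts in WT against 1454 and 2158 in *Phf2* KO replicates 1 and 2, which is lower in both *Phf2* KO libraries as labelled. Library totals were between 21094743 and 26094268 counts, and 3 counts, taken as the limit of detection, were worth 0.116 to 0.145 CPM (counts after scaling by library size), for counting error only. All 10 fibroblast markers, such as *Col1a1* and *Pdgfra*, were tested. They summed to 76320 and 82090 normalised CPM in WT replicates 1 and 2 against 71550 and 69560 in *Phf2* KO. Of the 10, 7 had a lower fitted level in *Phf2* KO, against 6665 of the 13668 genes tested. In 5 of them both *Phf2* KO libraries lay below both WT libraries, against 18.0% of all genes. The part of this in the results below was not tested. The other cell types were low, except that the 11 macrophage markers summed to 3418 and 748.7 normalised CPM in WT replicates 1 and 2 against 3934 and 1192 in *Phf2* KO replicates 1 and 2. *Xist*, the RNA that coats the inactive X, had 10042 and 8336 counts in the libraries numbered 1 but 3 and 12 in those numbered 2, and the Y-linked *Ddx3y* had 6 and 10 against 1271 and 1295. Both genotypes thus shared these differences between the numbers.

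Levels were compared between *Hox* genes as RPKM (the TMM-normalised CPM divided by the annotated exon length in kilobases), and a gene was called expressed at a mean of at least 1 RPKM over the 4 libraries. This held for 23 of the 39 genes: *Hoxa3*, *Hoxa5*, *Hoxa7*, *Hoxa9* and *Hoxa10*, *Hoxb2* to *Hoxb9* without a gap, *Hoxc4*, *Hoxc5*, *Hoxc6*, *Hoxc8*, *Hoxc9* and *Hoxc10*, and *Hoxd3*, *Hoxd4*, *Hoxd8* and *Hoxd9*. Of the 19 genes in paralog groups 4 to 9, 17 were expressed. In groups 10 to 13, *Hoxa10* and *Hoxc10* were the only ones of 12, and in groups 11 to 13 the highest mean level was 0.643 RPKM, of *Hoxa11*. At the 3′ end, *Hoxb1* and *Hoxd1* were not expressed, at 0.0131 and 0.0443 RPKM.

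**Figure D1:**
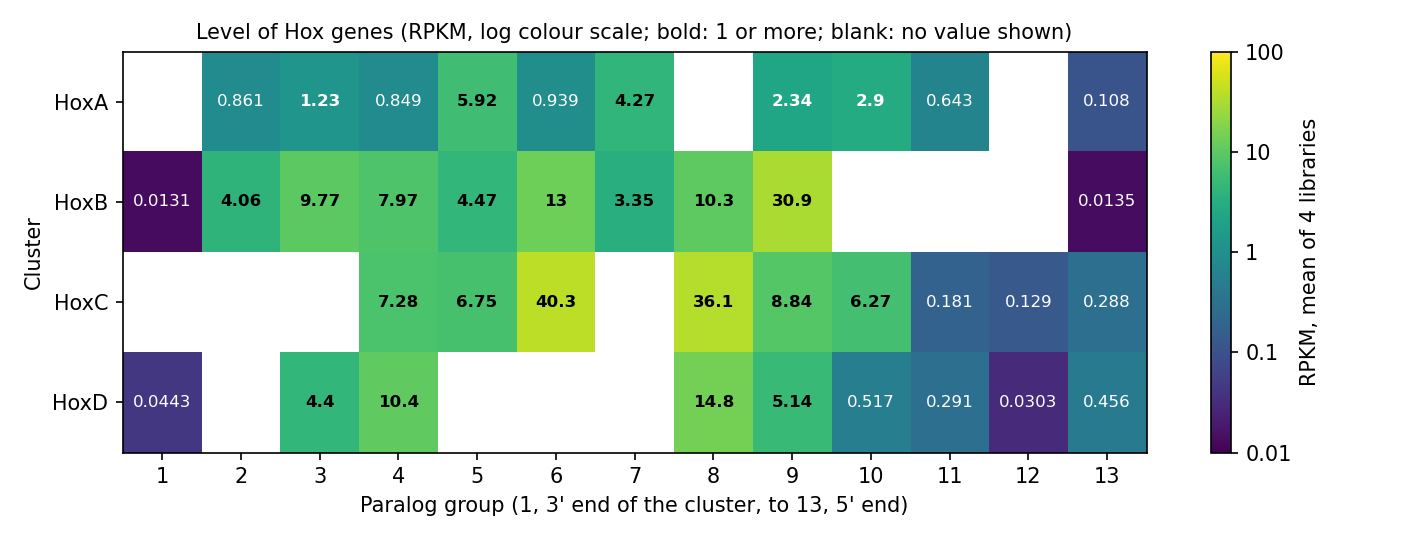
Mean level of the *Hox* genes over the 4 libraries in RPKM, with clusters as rows and paralog groups as columns, on a logarithmic colour scale and with the value printed in each cell. The 23 genes in bold have at least 1 RPKM and lie in groups 2 to 10, and the highest values are *Hoxc6* at 40.3, *Hoxc8* at 36.1 and *Hoxb9* at 30.9 RPKM.

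The *HoxC* cluster (chromosome 15, 102751534 to 102867274, forward strand; all positions of genes are on mm9) gave the largest share of *Hox* RNA. Its 9 genes summed to 92.7 and 113.8 RPKM in WT replicates 1 and 2 against 95.7 and 122.2 RPKM in *Phf2* KO replicates 1 and 2, or between 42.5% and 43.5% of the *Hox* total. *Hoxc6*, which acts in the thoracic region, was the most abundant *Hox* gene in every library. Its level was 34.8 and 43.5 RPKM in WT against 36.9 and 46.0 RPKM in *Phf2* KO replicates 1 and 2. *Hoxc8*, which helps to set the identity of thoracic vertebrae, came next in every library, at 33.2 and 37.5 RPKM in WT against 33.3 and 40.4 RPKM in *Phf2* KO. Between these genes and *Hoxc10*, a gene of the lumbar region and hindlimb, the level dropped to 6.27 ± 2.15 RPKM (SD, n = 4), and at *Hoxc11* it was 0.181 ± 0.0449 RPKM (SD, n = 4).

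The *HoxB* cluster (chromosome 11, 96055630 to 96229570, with *Hoxb13* at the lower and *Hoxb1* at the higher coordinate) gave between 33.5% and 34.9% of the *Hox* total. *Hoxb9*, which with its paralogs shapes the ribs, came after *Hoxc6* and *Hoxc8* in each of the 4 libraries. It was at 30.1 and 34.6 RPKM in WT against 26.5 and 32.6 RPKM in *Phf2* KO replicates 1 and 2. The next *Hox* gene towards the 5′ end, *Hoxb13*, a gene of the tail and prostate, held 0 and 2 counts in WT against 0 and 1 in *Phf2* KO. These counts are under the limit of detection. No *Hox* gene lies between *Hoxb9* and *Hoxb13*, so this step, unlike those in the other clusters, skips paralog numbers. Together *Hoxc6*, *Hoxc8* and *Hoxb9* made up 43.5% of the mean *Hox* RPKM.

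The *HoxD* cluster (chromosome 2, 74506367 to 74603200) gave between 12.3% and 16.9%. *Hoxd8* was its highest gene, at 16.6 and 13.2 RPKM in WT against 15.6 and 13.6 RPKM in *Phf2* KO replicates 1 and 2. *Hoxd9* had a mean of 5.14 ± 0.878 RPKM and *Hoxd10*, its 5′ neighbour, of 0.518 ± 0.191 RPKM (SD, n = 4). The genes that pattern the distal limb were low. *Hoxd11* had 45 and 43 counts in WT against 27 and 36 in *Phf2* KO, and *Hoxd12* no more than 5 in a library.

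The *HoxA* cluster (chromosome 6, 52105366 to 52210874, reverse strand) gave the smallest share, between 6.53% and 9.85%. Its highest gene was *Hoxa5*, which acts in the lung and the cervical and thoracic skeleton, at 3.40 and 7.31 RPKM in WT against 3.91 and 9.04 RPKM in *Phf2* KO replicates 1 and 2. *Hoxa10* had a mean of 2.90 ± 0.698 RPKM and *Hoxa11*, next to it, of 0.643 ± 0.196 RPKM (SD, n = 4). *Hoxa13*, a gene of the digits and the genital tubercle, had 4 and 13 counts in WT against 4 and 5 in *Phf2* KO. In bulk RNA, a low level in every cell and a higher one in few cells cannot be told apart, so that these levels do not say whether a given cell used the gene.

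**Figure D2:**
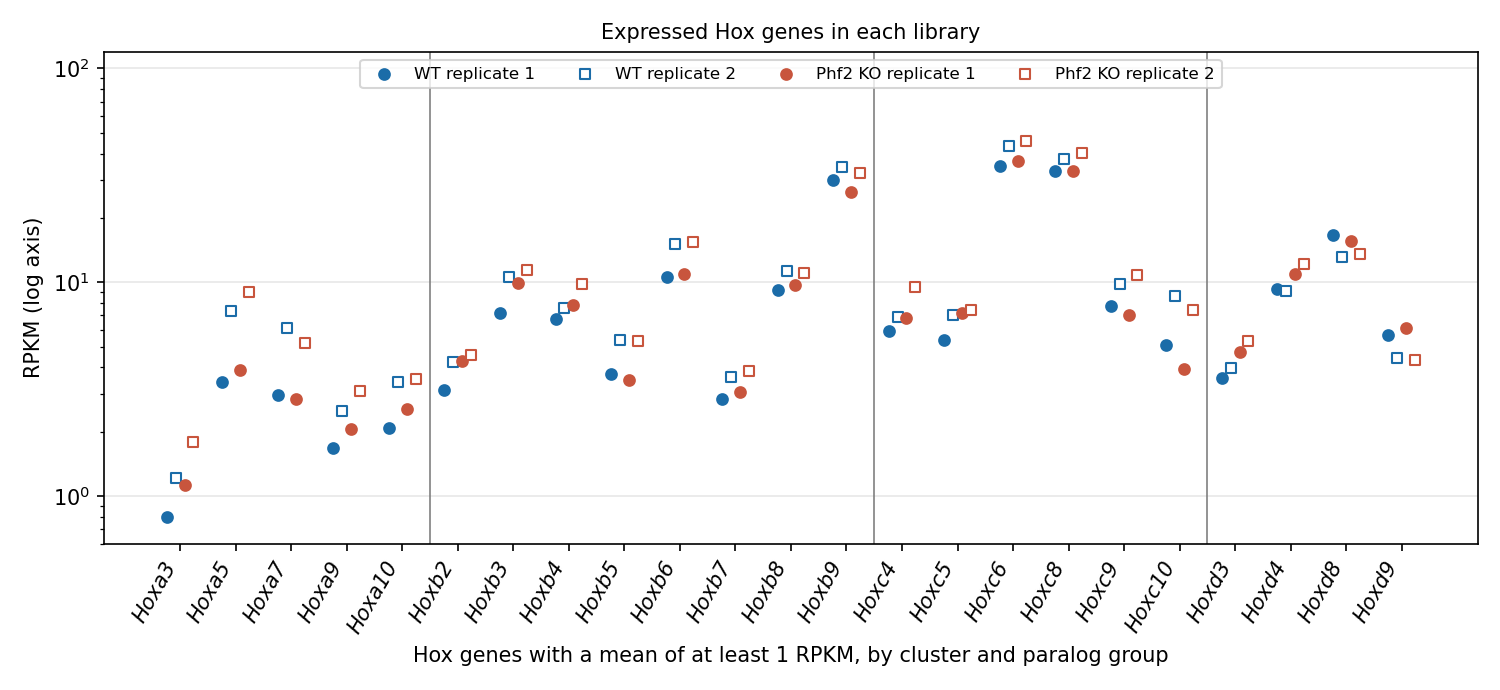
RPKM of the 23 expressed *Hox* genes in each of the 4 libraries, on a logarithmic axis, with clusters parted by vertical lines. Points are single libraries, filled for replicate 1 and open for replicate 2, blue for WT and red for *Phf2* KO, and open points lie above filled ones for most genes of *HoxA*, *HoxB* and *HoxC*, but below them for *Hoxd8* and *Hoxd9*.

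To ask whether loss of *Phf2* changed this code, the *Phf2* KO libraries were compared with WT. By the quasi-likelihood test of edgeR, with p-values adjusted by Benjamini-Hochberg, 0 of the 32 *Hox* genes tested were called at an adjusted p under 0.1, as were 0 by DESeq2, limma-voom and edgeR's likelihood ratio test. Over all genes the share called was 0.00732% by the quasi-likelihood test, 0.399% by DESeq2, 0% by limma-voom and 0.300% by the likelihood ratio test. None of these fits holds the replicate number, and the count of *Hox* genes called depends on that choice, as given with the other alternatives. At an unadjusted p under 0.05, 3 *Hox* genes passed the quasi-likelihood test, 2 passed DESeq2's, 3 limma-voom's and 0 the likelihood ratio test. By the last 3 of these tests 2.53%, 4.21% and 2.36% of all genes passed. The 3 of the quasi-likelihood test were *Hoxd3* and *Hoxd4*, higher in *Phf2* KO, and *Hoxa11*, lower, against 4.21% of all genes (1.54% higher and 2.67% lower). By the quasi-likelihood test the adjusted p-value was 0.999 for every *Hox* gene tested.

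*Hoxd3* and *Hoxd4* are neighbours that act in the head-neck transition and the cervical vertebrae. *Hoxd3* was at 20.7 and 23.1 normalised CPM in WT against 27.3 and 30.9 in *Phf2* KO replicates 1 and 2. The groups did not overlap, with a log2 fold change of 0.41 (standard error 0.123, unadjusted p = 0.0245 from edgeR's quasi-likelihood test), and of 0.40 and 0.42 within replicates 1 and 2. *Hoxd4* was at 23.8 and 23.3 normalised CPM in WT against 28.0 and 31.1 in *Phf2* KO. Here too the groups did not overlap, with a log2 fold change of 0.33 (standard error 0.107, unadjusted p = 0.0317 from edgeR's quasi-likelihood test). The annotated exons of both genes (*Hoxd3* 74549986 to 74586331 and *Hoxd4* 74560035 to 74567217, both on the forward strand of chromosome 2) share 1725 bases on the same strand. Reads from these bases cannot be given to one gene, so the pair is not 2 independent observations.

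*Hoxa11*, which patterns the forearm and lower leg and the uterus, had 52 and 57 counts in WT against 29 and 28 in *Phf2* KO replicates 1 and 2. Its normalised CPM were 2.16 and 2.20 in WT against 1.40 and 1.17 in *Phf2* KO, without overlap. Its log2 change was -0.76 (standard error 0.261, unadjusted p = 0.0366 from edgeR's quasi-likelihood test). Of its exons, 1038 bases are covered by the antisense gene *Hoxa11as* in the annotation, and the authors' alignment is described as reverse stranded. *Hoxa11os*, the row of the table that carries an antisense name, was at 1.12 and 3.24 normalised CPM in WT against 1.40 and 1.96 in *Phf2* KO, so that its groups overlapped.

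The promoters of these 3 genes are shown because Phf2 is known to bind H3K4me3, a mark of active start sites that is common where the dinucleotide CG is frequent. They are the 200 bases before the start in RefSeq (GRCm38.p6, a later build than mm9, with the coordinates of that build), 5′ to 3′ on the gene's own strand, with CG in capitals. Of the 39 *Hox* genes 22 were matched in that table, by 24 promoter windows.
*Hoxd3*, chr2:74711793-74711992, forward strand: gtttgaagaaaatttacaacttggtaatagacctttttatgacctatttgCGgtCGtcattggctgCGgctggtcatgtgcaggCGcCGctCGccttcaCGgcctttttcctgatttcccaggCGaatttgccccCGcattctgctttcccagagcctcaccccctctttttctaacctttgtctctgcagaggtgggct
*Hoxd4*, chr2:74721778-74721977, forward strand: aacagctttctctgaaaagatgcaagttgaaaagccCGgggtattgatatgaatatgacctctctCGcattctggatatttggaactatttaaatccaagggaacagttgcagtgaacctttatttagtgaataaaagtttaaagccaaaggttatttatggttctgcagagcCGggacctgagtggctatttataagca
*Hoxa11*, chr6:52245811-52246010, reverse strand: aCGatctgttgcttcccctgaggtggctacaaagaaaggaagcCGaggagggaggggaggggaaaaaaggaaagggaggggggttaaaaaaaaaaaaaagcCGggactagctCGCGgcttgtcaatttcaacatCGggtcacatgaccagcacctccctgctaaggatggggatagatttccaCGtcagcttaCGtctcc
In the 250 bases before the start, CG occurred 12 times for *Hoxd3*, 3 times for *Hoxd4* and 13 times for *Hoxa11*. The median was 12.5 over the 24 *Hox* windows and 6 over 32851 windows of all genes, of which 92.1% held at least 1 CG. *Hoxd3* and *Hoxd4* thus differed in this feature, and its part in the fold changes was not tested.

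Of the other 29 *Hox* genes, none passed even the unadjusted threshold. Of the 32 tested, 22 had a higher fitted level in *Phf2* KO and 10 a lower one, with a median log2 fold change of 0.09, against 0.00535 over all genes tested. Without WT replicate 1 or without *Phf2* KO replicate 2 the median turned to -0.06 and -0.08. Without WT replicate 2 or without *Phf2* KO replicate 1 it was 0.34 and 0.26, so this excess depends on which libraries are compared. Each such fit leaves the replicate numbers unequal between the genotypes. The median log2 ratio within replicates 1 and 2 was 0.0944 and 0.0858. Within the same replicate number, 26 of 32 genes (81.2%) moved the same way in both numbers, against 62.7% of all genes, and 18 of the 26 were higher. In 6 genes both *Phf2* KO libraries lay above both WT libraries, against 15.5% of all genes, and these were *Hoxb2*, *Hoxb4*, *Hoxc5*, *Hoxc13*, *Hoxd3* and *Hoxd4*. In 3 genes they lay below, against 18.0% of all genes, with *Hoxa11* and *Hoxd11* among them.

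*Hoxb4*, a gene of the neck region with a role in blood stem cells, was at 27.9 and 31.4 normalised CPM in WT against 32.5 and 40.6 in *Phf2* KO replicates 1 and 2. The lowest *Phf2* KO library was above the highest WT library, and the log2 fold change was 0.30 (standard error 0.150). *Hoxa3*, which acts in the pharyngeal arches and the thymus, was at 5.44 and 8.29 normalised CPM in WT against 7.67 and 12.2 in *Phf2* KO. Its groups overlapped, although it was 0.50 and 0.56 log2 units higher within replicates 1 and 2. *Hoxb3* was at 21.7 and 31.8 normalised CPM in WT against 29.9 and 34.2 in *Phf2* KO, again with overlap. *Hoxc4* overlapped as well, at 15.1 and 17.6 normalised CPM in WT against 17.5 and 24.3 in *Phf2* KO.

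The highest member of each cluster, and *Hoxc8*, did not pass the unadjusted threshold either. *Hoxc6* had a log2 fold change of 0.08 (standard error 0.165), *Hoxc8* of 0.06 (standard error 0.130) and *Hoxd8* of -0.03 (standard error 0.156). *Hoxb9*, at 77.5 and 89.0 normalised CPM in WT against 68.2 and 83.8 in *Phf2* KO, had a log2 fold change of -0.13 (standard error 0.139), and *Hoxa5* of 0.27 (standard error 0.548). Over the clusters, summed RPKM was 19.8 ± 7.97 in WT and 21.8 ± 8.36 in *Phf2* KO for *HoxA* and 82.9 ± 13.2 and 84.9 ± 13 for *HoxB* (SD, n = 2). The same sums were 103.3 ± 14.9 and 109.0 ± 18.7 for *HoxC* and 34.5 ± 2.86 and 37.5 ± 0.905 for *HoxD* (SD, n = 2). In each of the 4 clusters the difference between the means was within 1 SD of the WT libraries, except in *HoxD*, where it was slightly larger.

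**Figure D3:**
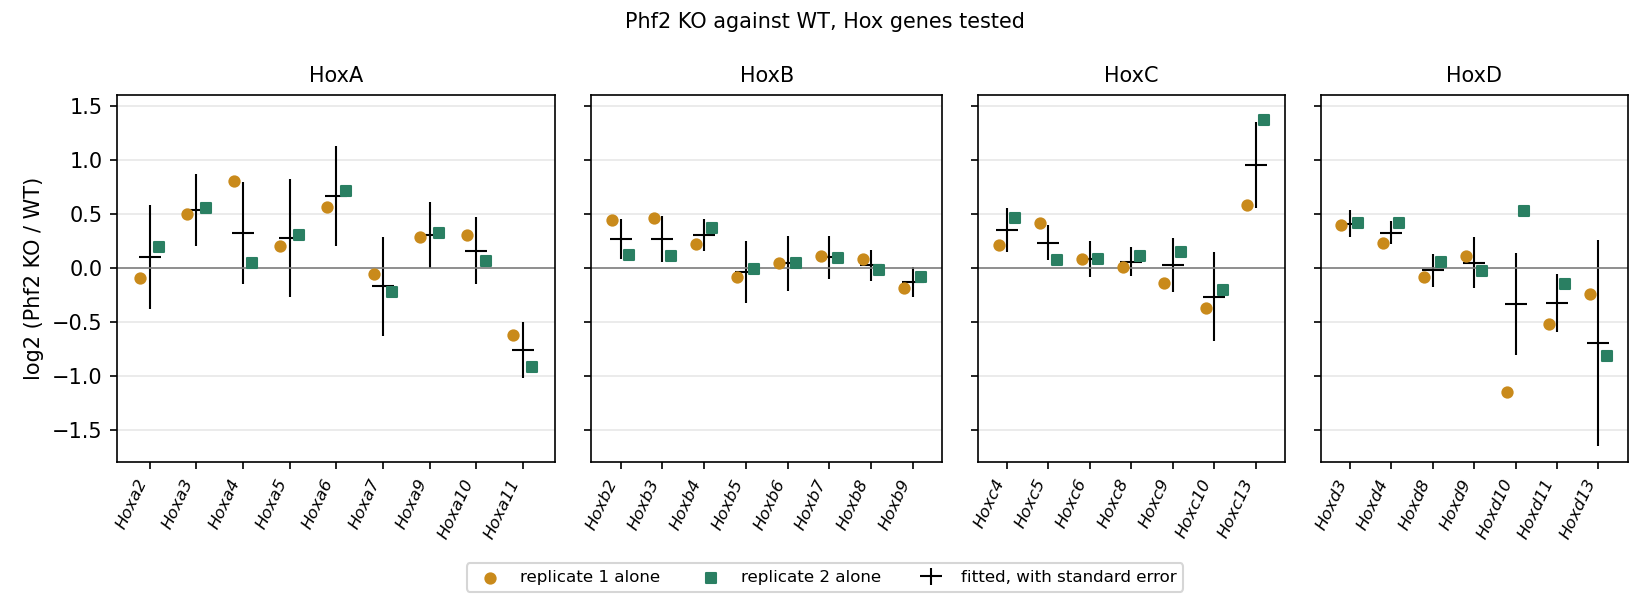
Log2 ratio of *Phf2* KO to WT for the *Hox* genes tested that are reported by name, in a panel per cluster from low to high paralog number. Circles and squares are the ratios within replicate 1 and within replicate 2, and bars are the fitted log2 fold change with its standard error. *Hoxd3* and *Hoxd4* lie above 0 and *Hoxa11* below it in both replicates, while *Hoxd10* has ratios of opposite sign.

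When the members were grouped by paralog number, a grouping chosen after the values had been seen, the fitted changes were lower towards the 5′ end. In groups 1 to 3, 5 of 6 genes tested were higher in *Phf2* KO, with a median log2 fold change of 0.27. In groups 4 to 8, 12 of 15 were higher, with a median of 0.10. In groups 9 to 13, 5 of 11 were higher, with a median of -0.13. As a description over the 32 genes, which share the 4 libraries, paralog number and log2 fold change had a Spearman's rho of -0.46 and a Pearson's r of -0.34. Within replicates 1 and 2 rho was -0.41 and -0.31, and r was -0.39 and -0.16. The relation was clearest in *HoxD*, with a rho of -0.93 and an r of -0.96 over 7 genes, of which *Hoxd3* and *Hoxd4* share exon bases and the 5′ genes have few counts. In *HoxB* rho was -0.76 and r was -0.83 over 8 genes. It was weak in *HoxA*, with a rho of -0.14 and an r of -0.22 over 10 genes. In *HoxC*, over 7 genes, the measures differed in sign, with a rho of -0.25 and an r of 0.30.

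Among groups 9 to 13 several genes rested on few counts. *Hoxc13*, a gene of hair and nails, had 14 and 10 counts in WT against 18 and 24 in *Phf2* KO replicates 1 and 2, for a log2 fold change of 0.95 (standard error 0.396). *Hoxd10* had 49 and 27 counts in WT against 19 and 36 in *Phf2* KO, and *Hoxd13*, which shapes the digits, 11 and 61 in WT against 8 and 32 in *Phf2* KO. *Hoxc11* had between 6 and 12 counts. *Hoxa9*, *Hoxa10*, *Hoxc9* and *Hoxc10* were better covered, at 142 to 631 counts in a library, and their fitted log2 fold changes were 0.31, 0.16, 0.03 and -0.27, with standard errors of 0.306, 0.309, 0.251 and 0.413.

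In fits with 1 term each, more *Hox* genes were called between the replicate numbers, at 10, than between the genotypes, at 0. The next fit holds both terms, unlike the tests of genotype above. In a fit with genotype as covariate, the quasi-likelihood test of edgeR, adjusted by Benjamini-Hochberg, called 21 of the 32 genes higher in replicate 2 than in replicate 1, against 12.6% of all genes, and 2 genes lower, against 13.6%. This fit has 1 residual degree of freedom and takes the WT and the *Phf2* KO library of a number as its replicates. Without the genotype term 10 genes were called, all higher in replicate 2, against 3.24% of all genes higher and 7.33% lower. In 20 genes both libraries of replicate 2 lay above both of replicate 1, against 25.4% of all genes, and in 2 below, against 24.2%. The median log2 difference was 0.33 over the *Hox* genes and 0.01 over all genes.

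The clusters differed in this, with 12.6% of all genes called higher in replicate 2 and 13.6% lower for comparison. In *HoxA* 8 of 10 genes tested were called higher in replicate 2, with a median log2 difference of 0.69. *Hoxa5* led with 1.16 (standard error 0.141, adjusted p = 1.02e-14 from edgeR), followed by *Hoxa7* with 0.95, *Hoxa2* with 0.90, *Hoxa6* with 0.86 and *Hoxa4* with 0.74. In *Hoxa7* the normalised CPM were 8.55 and 8.21 in replicate 1 and 17.5 and 14.9 in replicate 2, for WT and *Phf2* KO in turn. *Hoxa3*, *Hoxa9* and *Hoxa10* were also called, by 0.58 to 0.64 log2 units, and *Hoxa11* was not, at -0.09.

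In *HoxB* 7 of 8 genes were called higher in replicate 2, by 0.24 to 0.56 log2 units, from *Hoxb8* to *Hoxb5*, and *Hoxb2* was not, at 0.26. In *HoxC* 5 of 7 were called higher. *Hoxc10* differed most among these, at 9.71 and 7.48 normalised CPM in replicate 1 and 16.5 and 14.2 in replicate 2, or 0.84 log2 units (standard error 0.135, adjusted p = 1.23e-08 from edgeR). *Hoxc4*, *Hoxc6*, *Hoxc8* and *Hoxc9* were higher by 0.23 to 0.47 log2 units, and *Hoxc5* and *Hoxc13* were not called.

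*HoxD* was unlike the other clusters, with a median of -0.01. *Hoxd8* was at 45.6 and 42.9 normalised CPM in replicate 1 and 36.1 and 37.4 in replicate 2, which was lower by a log2 difference of -0.27 (standard error 0.0920, adjusted p = 0.0189 from edgeR). *Hoxd9* was also lower, by -0.42 log2 units (adjusted p = 0.0141 from edgeR). *Hoxd13*, at the 5′ end, was higher by 2.12 log2 units (standard error 0.368, adjusted p = 1.51e-07 from edgeR), with 11 and 8 counts in replicate 1 against 61 and 32 in replicate 2, for WT and *Phf2* KO in turn. *Hoxd3* and *Hoxd4*, which were among the 3 genes with a low p-value for genotype, were not called between replicate numbers, at 0.17 and 0.06 log2 units. The summed RPKM of *HoxA* was higher in replicate 2 by 0.84 log2 units for WT and 0.80 for *Phf2* KO, while for *HoxD* the same differences were -0.17 and -0.05.

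**Figure D4:**
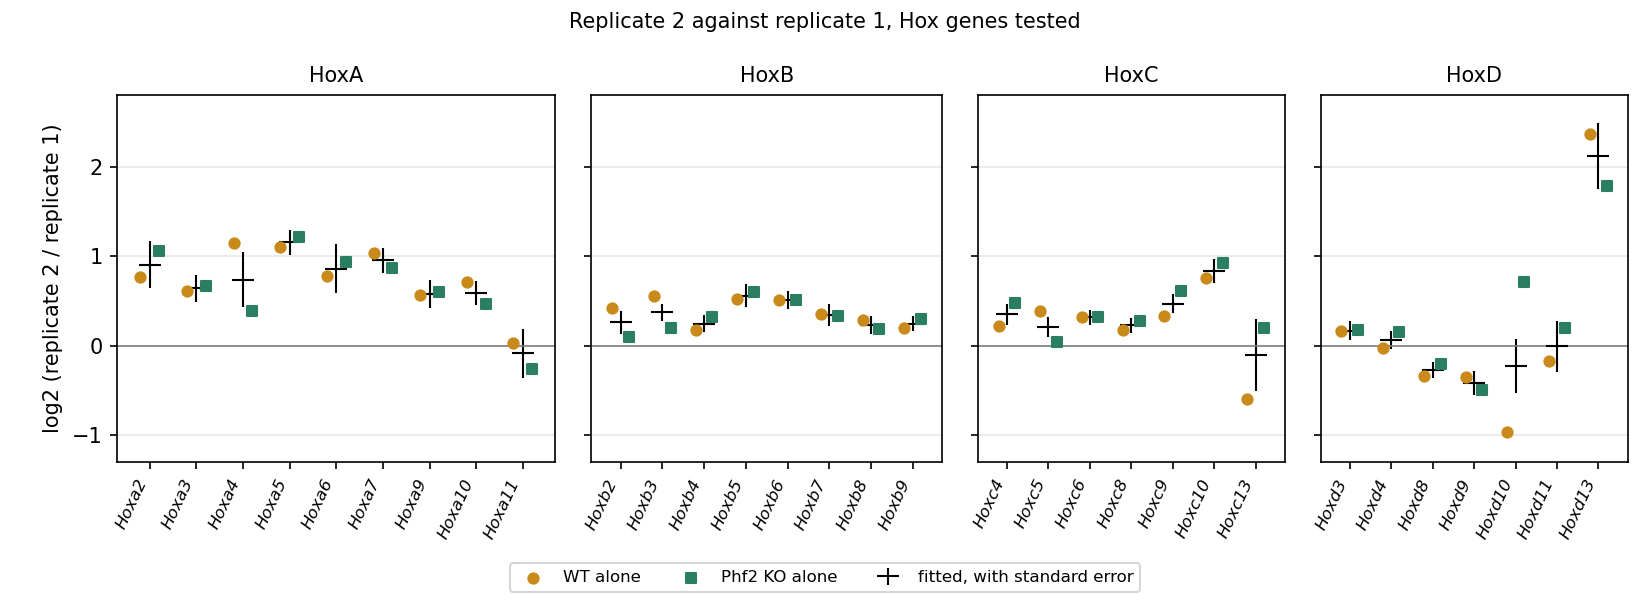
Log2 ratio of replicate 2 to replicate 1 for the *Hox* genes tested that are reported by name, in a panel per cluster from low to high paralog number. Circles and squares are the ratios within WT and within *Phf2* KO, and bars are the fitted difference with its standard error. Most genes of *HoxA*, *HoxB* and *HoxC* lie above 0 in both, *Hoxd8* and *Hoxd9* lie below 0 in both, and *Hoxd13* is highest at 2.12.

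Other genes moved along with the replicate number. All 11 macrophage markers were called lower in replicate 2, against 13.6% of all genes, with a median log2 difference of -2.03. *Xist* and *Ddx3y* differed as given above. *Lhx2*, which maintains limb bud outgrowth, had 3 and 1 counts in replicate 1 and 50 and 31 in replicate 2. *Col2a1*, the collagen of cartilage, was at 1.16 and 3.62 normalised CPM in replicate 1 and 20.9 and 26.8 in replicate 2. Of the 5 cartilage markers tested, *Col2a1* was the only one called between the numbers, against 26.2% of all genes. *Foxf2*, a gene of gut and craniofacial mesenchyme, differed by 2.17 log2 units. Of the 17 limb genes tested, 6 were called higher and 2 lower in replicate 2. Of the 14 genes of trunk and body wall mesenchyme, 7 were called higher and 0 lower. Over all genes 12.6% were called higher and 13.6% lower. The part of these genes and cells in the differences of the *Hox* genes was not tested.

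The RNAs of the proteins that *Hox* factors bind DNA with, and of those that maintain the state of the clusters, were also compared. Of the 9 TALE cofactors (*Pbx*, *Meis* and *Pknox* genes), all tested, 0 were called and 0 had an unadjusted p under 0.05 by edgeR's quasi-likelihood test, and 5 were higher and 4 lower with a median log2 fold change of 0.05. *Pknox2* had 468 and 574 counts in WT against 332 and 414 in *Phf2* KO replicates 1 and 2, without overlap also after scaling, for a log2 fold change of -0.32 (standard error 0.127). *Pbx4* was the lowest of them, at 0.711 ± 0.167 RPKM (SD, n = 4). Of the 30 Polycomb genes, 16 were higher and 14 lower, with a median of 0.01, and 0 were called or had an unadjusted p under 0.05 by edgeR. In 6 of the 30 both *Phf2* KO libraries lay above both WT libraries and in 6 below, against 15.5% and 18.0% of all genes. By RPKM *Cbx6* was the highest, at 64.7 ± 8.00, and *Phf19* the lowest, at 0.424 ± 0.179 (SD, n = 4). *Ezh2*, the H3K27 methyltransferase, had a log2 fold change of 0.04 (standard error 0.259). *Rybp*, a subunit of Polycomb repressive complex 1, was at 17.5 and 10.8 normalised CPM in WT against 9.46 and 8.36 in *Phf2* KO, without overlap, for a log2 fold change of -0.66 (standard error 0.273). *Rnf2*, the ubiquitin ligase of that complex, was at 34.6 and 28.6 against 27.0 and 25.4 normalised CPM, again without overlap, for -0.27 (standard error 0.133). Among the 13 trithorax genes 5 were higher and 8 lower, with a median of -0.01 and again 0 called or with an unadjusted p under 0.05 by edgeR. Those with an annotated length ranged from 1.52 RPKM for *Kdm6a* to 27.9 RPKM for *Kdm6b*, which encode H3K27 demethylases, and *Kmt2a*, which maintains active *Hox* genes, had a log2 fold change of -0.02 (standard error 0.0896). The 6 *Cdx* and ParaHox genes, upstream regulators or relatives of the *Hox* genes, had too few counts for a test.

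Genes that mark position in other ways gave a wider range. *Meox1*, a homeobox gene of the somites, was at 70.0 and 77.7 normalised CPM in WT against 29.9 and 37.7 in *Phf2* KO replicates 1 and 2. This was a log2 change of -1.13 (standard error 0.146, unadjusted p = 0.000864 and adjusted p = 0.999 by edgeR's quasi-likelihood test). It was called by edgeR's likelihood ratio test (adjusted p = 0.000654) and by DESeq2 (adjusted p = 3.38e-06). *Meox2*, its paralog, was at 4.65 and 4.89 normalised CPM in WT against 2.70 and 2.75 in *Phf2* KO, with a log2 fold change of -0.81 (standard error 0.190, unadjusted p = 0.00988 from edgeR's quasi-likelihood test). In both the groups did not overlap. They were the 2 of 14 genes of trunk and body wall mesenchyme with an unadjusted p under 0.05, against 4.21% of all genes. The median of that list was -0.04. *Nr2f2*, a nuclear receptor of venous and mesenchymal cells, was at 25.1 and 35.4 normalised CPM in WT against 29.4 and 44.5 in *Phf2* KO, with overlap. *Twist2*, a gene of dermal mesenchyme, was the highest of those with an annotated length, at 59.7 ± 1.98 RPKM (SD, n = 4), and *Foxf2* the lowest, at 0.134 ± 0.101 RPKM. *Lum*, among the fibroblast markers, and *Sox9*, among those of cartilage, were the markers with an unadjusted p under 0.05, with log2 fold changes of -0.75 and -0.45 and 0 calls by edgeR's quasi-likelihood test. *Tubb3*, *Des* and *Kdr*, among the neural, muscle and endothelial markers, had log2 fold changes of 0.35, -0.73 and -0.59.

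Of the cranial genes, *Dlx2*, which patterns the jaws, had 11 and 13 counts in WT against 23 and 24 in *Phf2* KO. It gave a log2 fold change of 1.13 (standard error 0.343, unadjusted p = 0.0248 from edgeR's quasi-likelihood test). It was the only one of 11 cranial genes tested with an unadjusted p under 0.05, against 4.21% of all genes. *Lhx6* was the lowest cranial gene tested, at 0.0855 ± 0.0198 RPKM (SD, n = 4). *Otx2*, the gene of the forebrain and anterior head, had at most 6 counts and was not tested. Of the limb genes 0 of 17 tested were called or had an unadjusted p under 0.05 by edgeR, and 11 were higher in *Phf2* KO, with a median of 0.11. *Hand2*, which sets the posterior side of the limb bud, was at 10.3 and 13.6 normalised CPM in WT against 14.2 and 18.1 in *Phf2* KO replicates 1 and 2, without overlap. *Prrx1*, a marker of limb and body wall mesenchyme, was the highest at 25.6 ± 1.34 RPKM (SD, n = 4). *Tbx5*, of the forelimb and anterior body wall, was at 2.88 RPKM on average, while *Tbx4* and *Pitx1*, of the hindlimb, were at 0.151 and 0.967 RPKM. Counts from genes of the head, forelimb and hindlimb were thus found in the same libraries, beside *Hox* genes of groups 2 to 10. Of those named here, *Lhx6*, *Tbx4* and *Pitx1* lay under the 1 RPKM set for expression. *Dlx2* and *Otx2* rested on few counts.

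**Figure D5:**
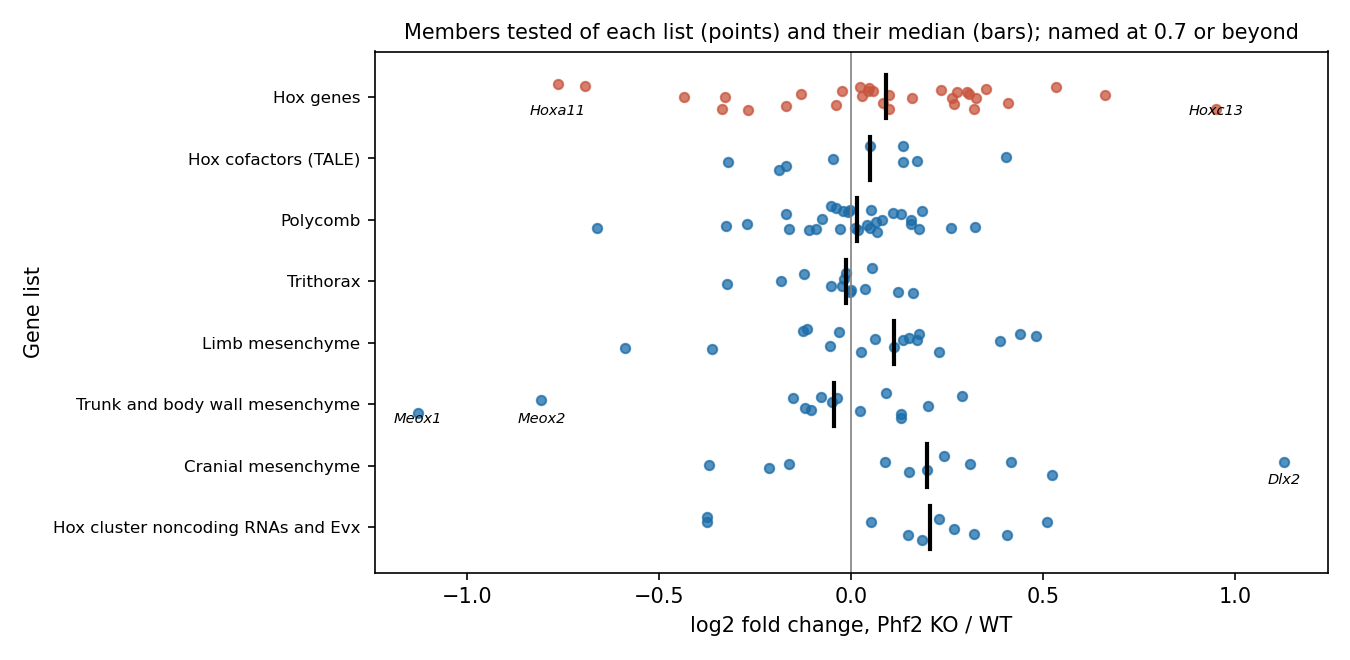
Fitted log2 fold change of *Phf2* KO over WT for the *Hox* genes tested and for the tested members of 7 further lists. Points are genes, bars the median of a list, and genes at 0.7 or beyond in either direction are named. *Meox1* and *Meox2* lie lowest at -1.13 and -0.81, and the medians of the lists lie between -0.04 and 0.21.

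A list of 20 further rows held noncoding genes named for the clusters, not all of which the annotation used here places, and the protein-coding *Evx1* and *Evx2*, which lie just outside *HoxA* and *HoxD*. It also held *1700109K24Rik*, which the annotation places on chromosome 15 outside *HoxC*. Of the 20 rows, 10 were tested, and 8 of them had a higher fitted level in *Phf2* KO, with a median log2 fold change of 0.21, and 0 were called or had an unadjusted p under 0.05 by edgeR. *Hotairm1*, in *HoxA*, was at 2.28 and 3.58 normalised CPM in WT against 3.23 and 5.12 in *Phf2* KO replicates 1 and 2. *Hotair*, in *HoxC*, had too few counts for a test, at no more than 0.291 normalised CPM. *Evx2*, next to *Hoxd13*, held up to 0.116 normalised CPM, and *Evx1*, next to *Hoxa13*, was at 0 in every library.

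The genes that flank the clusters, without a *Hox* gene among them, served as neighbours from the same regions. *Gm11538*, not tested, and *Gm53*, tested, lie inside *HoxB* between *Hoxb13* and *Hoxb9* and were counted with them. Within 500 kb of a cluster 54 genes were in the table and 40 were tested, with 25 above and 15 below the WT level in *Phf2* KO and a median log2 fold change of 0.04. By edgeR's quasi-likelihood test 0 were called, and *Sp1*, near *HoxC*, was the only one with an unadjusted p under 0.05, at a log2 fold change of -0.33 (standard error 0.115, unadjusted p = 0.0392). *B4galnt2*, a glycosyltransferase gene near *HoxB*, was at 31.6 and 14.9 normalised CPM in WT against 15.0 and 7.28 in *Phf2* KO replicates 1 and 2. Its groups overlapped, with a log2 fold change of -1.07 (standard error 0.508), and of -1.08 and -1.04 within replicates 1 and 2. *Gngt2*, also near *HoxB*, was at 17.6 and 3.74 normalised CPM in WT against 23.7 and 5.16 in *Phf2* KO, with overlap. *Lnp*, beyond *Evx2* on the 5′ side of *HoxD*, and *Mtx2*, on its 3′ side, had log2 fold changes of 0.08 (standard error 0.138) and -0.15 (standard error 0.105). *Skap2*, on the 3′ side of *HoxA*, was at 52.4 and 34.1 normalised CPM in WT against 49.5 and 37.9 in *Phf2* KO, for a log2 fold change of 0.02 (standard error 0.256). *Calcoco1*, next to *HoxC* on its 5′ side, had a log2 fold change of 0.04 (standard error 0.0789). On the 3′ side *D930007P13Rik*, the nearest, had 7 and 12 counts in WT against 6 and 28 in *Phf2* KO, for 0.96 (standard error 0.770), and *Smug1*, beyond it, had -0.28 (standard error 0.121). The nearest genes of *HoxB*, *Ttll6* and *Gm11529*, and *5730457N03Rik*, the nearest on the 5′ side of *HoxA*, had too few counts for a test.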

How the data were processed

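RNA-seq counts of 2 WT and 2 *Phf2* KO MEF libraries were analysed. Reads had been trimmed (Trim Galore), cleared of ribosomal RNA (Bowtie2) and aligned by STAR to mm9, reverse stranded, and the authors deposited the raw counts per gene given by featureCounts, as whole numbers. Tool versions and the annotation release are not given in the sources used here. A deposited DESeq2 table holds the authors' own fold changes and p-values, and was not used.

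Counts were tested in R 4.3.3 with edgeR 4.0.16 (filterByExpr, TMM, glmQLFit and glmQLFTest on genotype, Benjamini-Hochberg adjustment over 13668 genes, threshold 0.1). Replicate numbers were compared in the same way with genotype as covariate. DESeq2 1.42.0, limma 3.58.1 (voom), other scalings, filters and thresholds, the replicate number as a block, and leaving out each library were alternatives. RPKM used the union of annotated exons on mm9 (GENCODE M1), between 1031 and 6836 bases for *Hox* genes. Genes with exons that overlap on a strand, such as *Hoxd3* and *Hoxd4* or *Hoxb7* and *Hoxb8*, have uncertain counts. Seed matches were searched on the mRNA strand, CG reads alike on both strands. Figures used Python 3.11.15 and Matplotlib 3.10.9. The tests were tried on simulated counts. Sampling noise was exceeded in all 6 pairs of libraries over the *Hox* genes (chi-square per degree of freedom 4.25 to 24.3).

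All *Hox* genes entered the tests and counts, but a few results are not reported here by name. Values per library are given for those with an unadjusted p under 0.05 or called in any fit, the highest of each cluster, those at its 5′ limit of expression, and groups 9 to 13 with at least 10 counts in a library. Of other lists, macrophage markers aside, the members called between genotypes in any fit or with an unadjusted p under 0.05, the highest and lowest, and the neighbours of clusters are named. *Hotairm1*, *Hotair*, *Otx2*, *Tbx5*, *Tbx4*, *Pitx1*, *Lhx2*, *Foxf2*, *Col2a1*, *Ezh2*, *Kmt2a* and *Smug1* were added after their values were seen. The members, lists and tests were chosen with earlier results of these data known.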

Additional observations from a re-analysis of the deposited data

How the results depend on the processing

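The count of *Hox* genes called between genotypes was 0 under edgeR's quasi-likelihood test and remained 0 with limma-voom, DESeq2, the likelihood ratio test of edgeR, RLE or library size scaling, both filters, thresholds of 0.05 and 0.01, and without each library in turn. It changed in fits with the replicate number as a block. The labels do not state a pairing, and there are only 2 numbers. Across 13668 genes the replicate 2 to 1 difference of WT went with that of *Phf2* KO (r = 0.81), and both libraries of a number shared the levels of *Xist* and *Ddx3y*. The library numbers in the column headers are also consecutive for the WT and *Phf2* KO libraries of a replicate number. These are hints of a pairing and not a statement of it. With the block, edgeR called 7 *Hox* genes, namely *Hoxa3*, *Hoxb3*, *Hoxb4*, *Hoxc4*, *Hoxd3* and *Hoxd4* higher and *Hoxa11* lower, against 5.77% of all genes higher and 5.20% lower. The block in limma-voom, added after seeing the data, called 6, the same genes without *Hoxa11*, and in DESeq2, also added, 0. The share of all genes called was not taken for these added fits, so their counts cannot be set against it.

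Between replicate numbers 23 *Hox* genes were called with genotype in the fit and 21 to 23 with limma-voom, other scalings, all genes with a count or a threshold of 0.05, but 10 without the genotype term. Without 1 library, where no genotype term can be fitted, between 4 and 10 were called (8 without WT replicate 1, 10 without WT replicate 2, then 7 and 4 without the first and the other *Phf2* KO library), an alternative added after seeing the data. The count of expressed *Hox* genes was 23, and 22 to 29 under the alternatives.

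The direction of the fold change between genotypes was the same for all tested *Hox* genes under each alternative that used all 4 libraries, the added blocks in limma-voom and DESeq2 included (31 of the 32 passed the CPM filter), but without 1 library it could turn: in 12 of 32 genes without WT replicate 1, in 11 without *Phf2* KO replicate 2, in 5 without WT replicate 2 and in 5 without *Phf2* KO replicate 1. Their lowest and highest log2 fold changes with a library left out were -0.14 and 0.54 for *Hoxa10*, -0.53 and 0.52 for *Hoxa2*, -0.12 and 0.99 for *Hoxa4*, -0.45 and 0.91 for *Hoxa5*, -0.66 and 0.42 for *Hoxa7*, -0.0213 and 0.60 for *Hoxa9*, -0.37 and 0.23 for *Hoxb5*, -0.23 and 0.30 for *Hoxb6*, -0.0796 and 0.27 for *Hoxb7*, -0.10 and 0.16 for *Hoxb8*, -0.29 and 0.0089 for *Hoxb9*, -0.80 and 0.15 for *Hoxc10*, -0.0858 and 0.23 for *Hoxc6*, -0.0888 and 0.19 for *Hoxc8*, -0.31 and 0.30 for *Hoxc9*, -0.76 and 0.23 for *Hoxd10*, -1.85 and 0.91 for *Hoxd13*, -0.20 and 0.17 for *Hoxd8* and -0.22 and 0.27 for *Hoxd9*. The depth limited what could be said of the 7 untested genes and of *Hoxc13*, *Hoxd10*, *Hoxd11* and *Hoxd13*.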
